A study of Homo sapiens with 2 samples.

Results

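The genes described here encode the NRF2 antioxidant response, the glutathione and thioredoxin systems and the iron and lipid factors of ferroptosis, measured in the human glioblastoma (GBM) line SF-539. They were taken by name from a list of 39 genes, and 38 of these were kept because the deposited table of 58735 genes gives them as protein-coding. GPX1 was left out, since the table calls it a polymorphic pseudogene. SOD2 has a pair of identifiers in the table, and all of its fragments lay on ENSG00000112096, which was used. Of the 38 genes, 34 reached 1 FPKM in at least 1 library, and AKR1C2, ME1, GPX7 and SLC40A1 did not. FPKM is the number of sequenced fragments per kilobase of gene, scaled to the number of fragments on all genes of the library.

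Both conditions were SF-539 lines carrying a pGIPZ lentiviral vector and selected with puromycin, at passages 15 to 18. The shControl line carried the pGIPZ-CTRL construct and the shFKBP9 line an shRNA against FKBP9, a prolyl isomerase of the endoplasmic reticulum (ER). Each condition was sequenced as 1 library, so every difference below lacks a replicate check in these data, and no test between the conditions was possible. Which of the study's shRNAs was sequenced, and whether a line was 1 clone or a pool, is not given in the sources used here. FKBP9 itself was at 49.8 FPKM in shControl and 4.68 FPKM in shFKBP9, or 9.39% of the control. The paper also reports its knockdown in SF-539 by immunoblot. The 2 libraries held 18116873 and 17158514 fragments on genes.

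The labels call the cells epithelial glioma cells of brain. The mesenchymal markers VIM and CD44 were abundant, with VIM at 277 FPKM in shControl and 295 FPKM in shFKBP9, whereas 4 epithelial markers held 179 and 149 fragments in all. Of these, KRT8 had 159 and 129 fragments (1.28 and 1.09 FPKM), EPCAM had 11 and 14, KRT18 had 9 and 5, and CDH1 had 0 and 1. The glial genes GFAP, OLIG2, SOX2 and S100B were each under 1 FPKM in both libraries. Of 4 keratinocyte markers, 2 had a fragment in shControl and 4 in shFKBP9, and their sum was 9 and 62 fragments. Of 6 leukocyte and plasma cell markers the sum was 13 and 65 fragments, with PTPRC and CD3E at 0 in both. The fragments of the immunoglobulin genes IGHG1 (0 and 33) and IGKC (0 and 8) came from shFKBP9 alone, and CD14 had 13 and 24. The part of such other cells in the values below was not tested.

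NRF2, encoded by NFE2L2, is a transcription factor that the adaptor KEAP1 marks for degradation in unstressed cells. Oxidants and electrophiles modify KEAP1, after which NRF2 accumulates and, paired with a small MAF protein, binds antioxidant response elements near genes for glutathione synthesis, NADPH supply, quinone reduction and iron storage. Ferroptosis is a form of cell death in which iron drives the peroxidation of membrane lipids. GPX4 opposes it with glutathione made from imported cystine, and ACSL4 favours it by loading polyunsaturated fatty acids into membranes. NRF2 is controlled mainly as a protein, which mRNA levels do not show.

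The core of the antioxidant response element can be written TGACNNNGC. It was searched on both strands of the RefSeq promoter windows (GRCh38.p14), which run from 250 bases before each gene's start to 50 bases after it. A window was found for 31 of the 38 genes, and the core lay in the windows of 8 of them: GCLM, PGD, TXNRD1, KEAP1, CBR1, ME1, MGST1 and NCOA4. By window, 9 of 44 (20.5%) held it, against 13.3% of all 35116 windows. The first 6 are shown because they include a gene whose counting interval lay above 0 (GCLM), one below 0 (PGD) and others whose counting interval included 0; each is read along the gene's strand, with every TGACNNNGC core of either strand in capitals.

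GCLM: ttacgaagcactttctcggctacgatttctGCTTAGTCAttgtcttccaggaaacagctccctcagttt
PGD: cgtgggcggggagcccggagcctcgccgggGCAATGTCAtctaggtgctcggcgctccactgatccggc
TXNRD1: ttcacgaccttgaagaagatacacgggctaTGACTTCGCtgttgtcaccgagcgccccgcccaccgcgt
KEAP1: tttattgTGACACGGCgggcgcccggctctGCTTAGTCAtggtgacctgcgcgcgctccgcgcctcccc
CBR1: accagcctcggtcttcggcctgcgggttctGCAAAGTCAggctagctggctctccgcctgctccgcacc
ME1: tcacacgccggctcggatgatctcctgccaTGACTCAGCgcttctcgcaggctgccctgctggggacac

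The GCLM stretch is chr1:93909426-93909494 on the minus strand, and its core begins 34 bases before the start. The PGD stretch is chr1:10398833-10398901 on the plus strand, with the core 201 bases before the start. The TXNRD1 stretch is chr12:104215650-104215718 on the plus strand, with its core 99 bases before the start. The KEAP1 stretch is chr19:10502764-10502832 on the minus strand and holds a pair of cores, 54 and 31 bases before the start. The CBR1 stretch is chr21:36069835-36069903 on the plus strand, with its core 159 bases before the start. The ME1 stretch is chr6:83431150-83431218 on the minus strand, and its core, 137 bases before the start, overlaps TGACTCA, the AP-1 motif, which 4.95% of all windows hold. The windows of TXNRD1 and ME1 hold further cores that are not shown. A match is a run of letters and not a measured site.

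The levels of these genes spanned a wide range, and the ferritin subunits, which store iron, stood highest. FTL had 3304 FPKM in shControl and 3100 FPKM in shFKBP9 and ranked 3 among protein-coding genes in shControl, and FTH1 had 1803 and 1756 FPKM. They held 48.2% of all fragments on the 38 genes in shControl. AKR1B1, an aldo-keto reductase that reduces glucose and lipid aldehydes, followed at 686 and 574 FPKM. At the other end, GPX7 and SLC40A1 had 0 fragments in both libraries. For SLC40A1, the iron exporter ferroportin, 3 fragments would have given 0.0383 FPKM in shControl, and for GPX7, an ER peroxidase, 0.0980 FPKM, the upper limits that a count of 0 allows by counting error. ME1, a malic enzyme that makes NADPH, had 2 and 3 fragments.

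**Figure D1:**
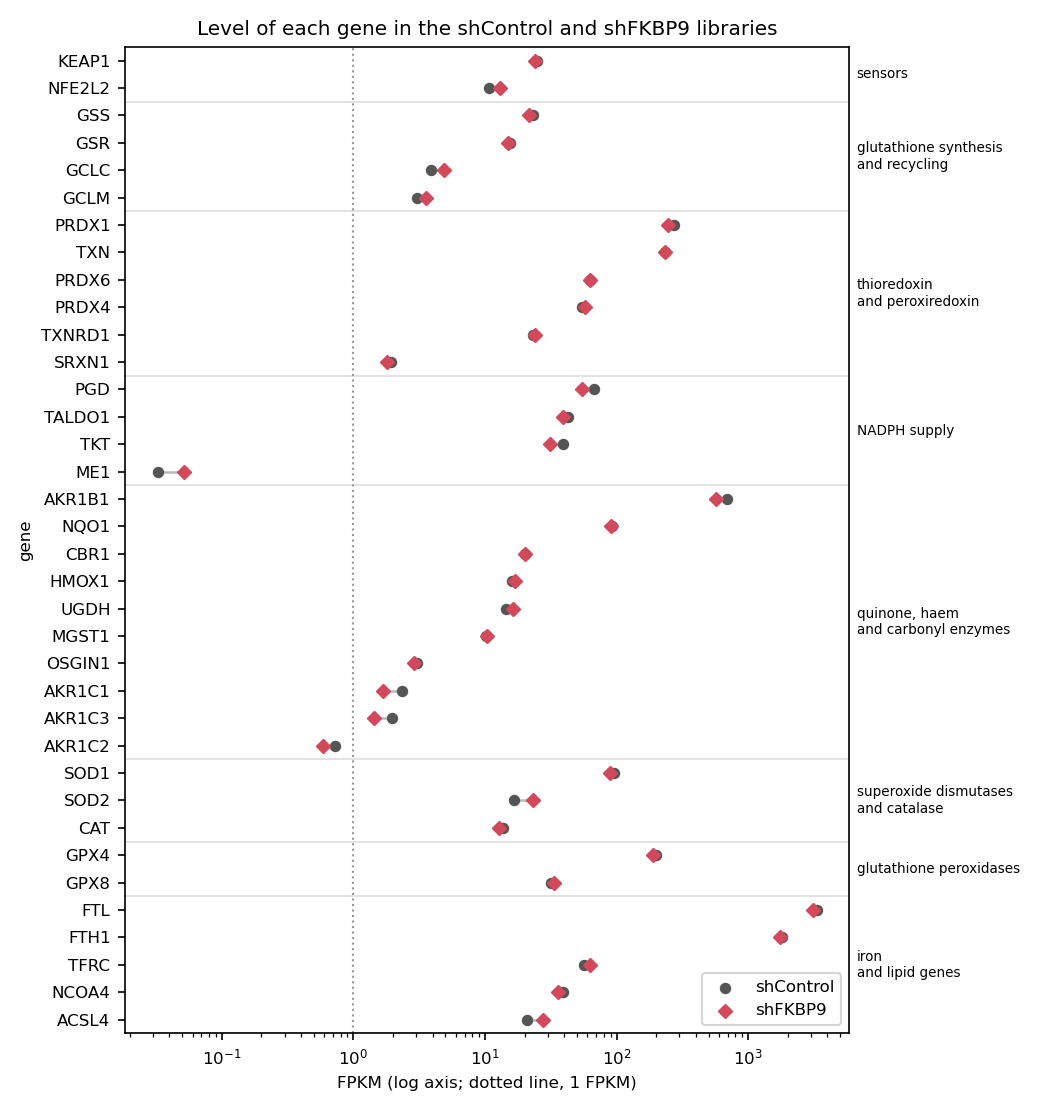
FPKM (log axis) of the genes with a fragment, grouped by role, in shControl (grey circles) and shFKBP9 (red diamonds), with 1 library each and no error bars. Levels run from under 0.1 FPKM for ME1 to over 3000 FPKM for FTL, and the pair of symbols nearly coincides for most genes; GPX7 and SLC40A1, at 0, cannot be drawn on this axis.

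As a set, these genes differed between the libraries about as other genes did. Each gene's response is given as the log2 of its shFKBP9 level over its shControl level, after adding 0.1 FPKM to each, beside a 95% exact Clopper-Pearson interval of the fragment counts that covers counting error only. Over the 34 genes this log2 ratio had a median of -0.04, against -0.02 over 10346 protein-coding genes with at least 1 FPKM. The middle 90% of the 34 genes lay from -0.37 to 0.35, and that of protein-coding genes from -0.36 to 0.34. A higher or lower value in bulk RNA cannot tell RNA per cell from the share of cells that make it.

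None of the 34 genes was past 2-fold in either direction: 0 were higher and 0 lower, where 0.213% and 0.193% of protein-coding genes were. The study set the same fold but also required a corrected P value, which was not applied here. A smaller line was set at a ratio of 5 to 4, which is 0.322 on the log2 scale. Past it, 3 genes were higher in shFKBP9 (8.82%), namely SOD2, ACSL4 and GCLC, where the background was 5.87%. The 3 lower genes (8.82%) were AKR1C1, AKR1C3 and TKT, beside 6.94% of protein-coding genes. Both shares rest on 3 genes and lie near their background. GCLC, at 0.325, lay just past the line, and PGD, at -0.31, just short of it. On the TPM scale PGD passed the line and GCLC did not. Among genes of at least 10 FPKM, 2 of 28 were higher and 1 lower, with backgrounds of 4.10% and 3.26%.

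The counting interval lay wholly above 0 for 7 genes (20.6%, background 19.7%) and wholly below 0 for 12 genes (35.3%, background 24.0%). This rule compares the libraries, not the conditions, and passes more often in abundant genes, of which the list holds many. At 10 FPKM or more, 5 of 28 genes were above (17.9%, background 25.2%) and 10 below (35.7%, background 31.1%). If libraries of the same cells varied by a coefficient of 10%, only SOD2 and ACSL4 would stay above and AKR1C1 below. Of these, ACSL4 and AKR1C1 would barely clear 0.

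Of the pathway's switch, NFE2L2 had an interval above 0, as 25.2% of protein-coding genes of at least 10 FPKM did, and lost this call with a coefficient of variation of 10% assumed. NFE2L2 (chromosome 2, 177227595 to 177392697) had 1155 fragments in shControl and 1339 in shFKBP9, or 10.7 and 13.0 FPKM. Its log2 ratio was 0.29 (0.18 to 0.40), short of 0.322. AGPS, a gene on the opposite strand that overlaps it, was at 7.90 and 8.19 FPKM. KEAP1 was at 24.7 and 23.8 FPKM, a log2 ratio of -0.05 with an interval that includes 0 (-0.15 to 0.05).

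For NQO1, HMOX1 and TXNRD1, which NRF2 is known to induce, the counting interval included 0. Other genes on the list known as targets lay on either side. Among them, GCLC, GCLM and UGDH lay above 0. TKT, TALDO1, PGD, PRDX1, AKR1C1, AKR1C3, FTH1 and FTL lay below it, and SRXN1, OSGIN1, GSR, TXN and CBR1 had intervals that included it. No fixed list of targets was set. Over all 34 genes, 7 lay above (20.6%, background 19.7%) and 12 below (35.3%, background 24.0%). NQO1, the quinone reductase often used as a reporter of NRF2, had 92.6 FPKM in shControl and 91.1 FPKM in shFKBP9, a log2 ratio of -0.02 (-0.08 to 0.03). HMOX1, which breaks down haem and releases its iron, had 15.9 and 17.0 FPKM (0.09, -0.06 to 0.24). TXNRD1, the thioredoxin reductase, had 23.2 and 23.9 FPKM (0.04, -0.03 to 0.12), from 2821 and 2758 fragments. RPL18AP3, a processed pseudogene on the same strand, overlaps its span and held 1774 and 1524 fragments. Any effect of this overlap on TXNRD1 was not tested. The intervals of NQO1, HMOX1 and TXNRD1 lay within 0.322 of 0. For SRXN1, which repairs overoxidized peroxiredoxins, and OSGIN1, an oxidative stress response gene, depth set the limit: 95 and 83 fragments gave an interval of -0.56 to 0.32 for SRXN1, and 189 and 172 fragments one of -0.37 to 0.25 for OSGIN1.

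Of the 4 glutathione synthesis and recycling genes, GCLC and GCLM had intervals above 0, as 19.7% of protein-coding genes did, and neither kept this call with a coefficient of variation of 10% assumed. GSS and GSR had intervals that included 0. GCLC, the catalytic subunit of glutamate-cysteine ligase (chromosome 6, 53497341 to 53616970), had 609 fragments in shControl and 727 in shFKBP9. Its level was 3.89 and 4.90 FPKM, and its log2 ratio was 0.32 (0.17 to 0.49), or 0.27 with 1 added to FPKM. GCLM, the modifier subunit (chromosome 1, 93885205 to 93909456), had 3.05 and 3.58 FPKM, a log2 ratio of 0.23 whose interval barely cleared 0 (0.00 to 0.46). GSS, which adds glycine to complete glutathione, was at 23.0 and 21.8 FPKM (-0.08, -0.16 to 0.00), and GSR, which reduces oxidized glutathione, at 15.5 and 15.1 FPKM (-0.04, -0.16 to 0.09).

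**Figure D2:**
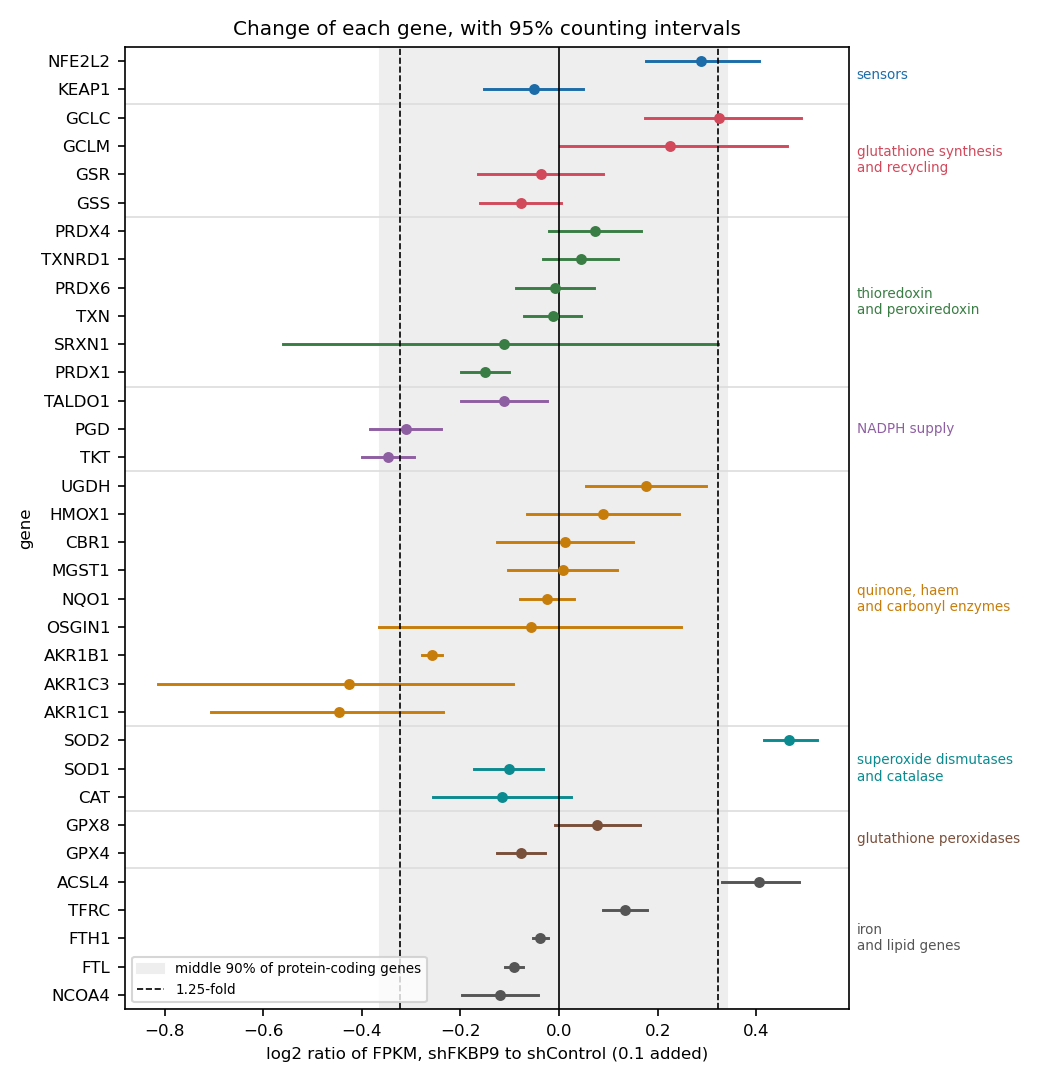
Log2 ratio of FPKM (shFKBP9 to shControl, 0.1 added) of the 34 genes by role, with bars for the 95% counting interval, dashed lines 0.322 either side of 0 and a grey band for the middle 90% of protein-coding genes. SOD2 and ACSL4 lie right of the band at 0.47 and 0.41, AKR1C1 and AKR1C3 lie left of it, and the 3 NADPH genes are all left of 0.

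The 3 enzymes of the pentose phosphate pathway on the list had intervals below 0, as 31.1% of protein-coding genes of at least 10 FPKM did, and none kept this call with a coefficient of variation of 10% assumed. This pathway turns glucose-6-phosphate into pentoses and yields the NADPH that reduces glutathione and thioredoxin. PGD, its second NADPH-forming enzyme (chromosome 1, 10398592 to 10420144), had 3602 fragments in shControl and 2754 in shFKBP9. Its level was 67.1 and 54.1 FPKM, with a log2 ratio of -0.31 (-0.38 to -0.24). TKT, the transketolase of the non-oxidative arm (chromosome 3, 53224707 to 53256052), was at 39.4 and 31.0 FPKM, from 6788 and 5060 fragments, with a log2 ratio of -0.35 (-0.40 to -0.29). TALDO1, the transaldolase of the same arm, was at 42.6 and 39.4 FPKM (-0.11, -0.20 to -0.03). The intervals of TKT and TALDO1 do not overlap, so by counting error alone the libraries differed more in TKT than in TALDO1.

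Of the 6 thioredoxin and peroxiredoxin genes on the list, PRDX1 alone had an interval on 1 side of 0. It lay below 0, as for 31.1% of protein-coding genes of at least 10 FPKM, and lost this call with a coefficient of variation of 10% assumed. Of the further peroxiredoxins examined, PRDX3 (0.14, 0.06 to 0.22) and PRDX5 (0.15, 0.07 to 0.22) had intervals above 0, as 25.2% of protein-coding genes of at least 10 FPKM did, and that of PRDX2 included 0 (-0.18, -0.40 to 0.03). PRDX1, a cytosolic peroxiredoxin, had 272 FPKM in shControl and 245 FPKM in shFKBP9 (log2 ratio -0.15, -0.20 to -0.10). TXN, the thioredoxin that recharges it, had 234 and 232 FPKM (-0.01, -0.07 to 0.05). PRDX6, which also reduces phospholipid peroxides, had 62.8 and 62.4 FPKM (-0.01, -0.09 to 0.07). The ratios of TXN and PRDX6 are smaller than the 0.02 by which another scaling moves all genes.

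The ER holds peroxidases of its own, which consume the hydrogen peroxide released when disulfide bonds form. PRDX4, the ER peroxiredoxin, was at 54.3 FPKM in shControl and 57.1 FPKM in shFKBP9 (log2 ratio 0.07, -0.02 to 0.17). GPX8, a peroxidase of the ER membrane, was at 31.5 and 33.3 FPKM (0.08, -0.01 to 0.16). Both intervals include 0, and that of GPX8 lay above 0 when ratios were centred on the median of protein-coding genes, so its call depends on the scaling. GPX4, which reduces lipid peroxides in membranes, was at 199 and 188 FPKM (-0.08, -0.13 to -0.03).

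SOD2 had the largest positive log2 ratio of the 34 genes. SOD2, the manganese superoxide dismutase of mitochondria (chromosome 6, 159669057 to 159745186), had 4964 fragments in shControl and 6513 in shFKBP9. Its level was 16.6 and 23.0 FPKM, or 138% of the control, with a log2 ratio of 0.47 (0.42 to 0.52). WTAP, on the opposite strand, overlaps the span of SOD2 and was at 8.80 and 8.87 FPKM (0.01). The library kit does not mark strand as far as the sources name it, so reads where the exons overlap could not be assigned by strand. SOD1, the copper and zinc enzyme of the cytosol, was at 96.2 and 89.6 FPKM (-0.10, -0.17 to -0.03), and CAT, the peroxisomal catalase, at 13.8 and 12.7 FPKM (-0.11, -0.26 to 0.02).

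Of the 4 aldo-keto reductases, AKR1B1, AKR1C1 and AKR1C3 had intervals below 0, as 24.0% of protein-coding genes did. Among genes of at least 10 FPKM, where AKR1B1 lies, that share was 31.1%. AKR1C1 alone kept this call with a coefficient of variation of 10% assumed, and barely. AKR1B1 (chromosome 7, 134442350 to 134459284) had 45433 fragments in shControl and 36037 in shFKBP9, a log2 ratio of -0.26 with a narrow interval (-0.28 to -0.24). AKR1C1, AKR1C2 and AKR1C3 reduce steroids and lipid aldehydes and lie side by side on chromosome 10. AKR1C1 had 371 and 254 fragments (log2 ratio -0.45, -0.71 to -0.24) and AKR1C3 had 160 and 111 (-0.43, -0.81 to -0.09). AKR1C2, under 1 FPKM, had 85 and 65 fragments, with an interval from -0.80 to 0.17.

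These 3 genes resemble each other closely, so their reads are uncertain. Of the 100-base windows of the GENCODE release 44 canonical transcript, 12.6% of those of AKR1C1, 27.8% of AKR1C2 and 7.82% of AKR1C3 occur in a transcript of another of the 3. Summed, they had 616 fragments in shControl and 430 in shFKBP9, a log2 ratio of -0.44 (-0.62 to -0.26). With 1 added to FPKM in place of 0.1, neither AKR1C1 nor AKR1C3 passed 0.322.

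Of the other detoxifying enzymes, UGDH, which makes UDP-glucuronic acid, was at 14.5 FPKM in shControl and 16.4 FPKM in shFKBP9 (log2 ratio 0.18, 0.05 to 0.30). CBR1, a carbonyl reductase, had 887 and 848 fragments (0.01, -0.13 to 0.15). MGST1, a microsomal glutathione transferase, was at 10.2 and 10.3 FPKM (0.01, -0.10 to 0.12). The ratios of both are likewise smaller than that shift.

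Of the 5 iron and lipid genes on the list that reached 1 FPKM, ACSL4 had the largest log2 ratio. ACSL4, the long-chain acyl-CoA synthetase introduced above (chromosome X, 109624244 to 109733403), had 2408 fragments in shControl and 3029 in shFKBP9. Its level was 20.7 and 27.5 FPKM, or 133% of the control, with a log2 ratio of 0.41 (0.33 to 0.49). TFRC, the transferrin receptor that brings iron into the cell, was at 57.0 and 62.5 FPKM (0.13, 0.09 to 0.18).

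For the 3 genes of iron storage and its release the counting interval lay below 0, as it did for 31.1% of protein-coding genes of at least 10 FPKM, and for none of them with a coefficient of variation of 10% assumed. NCOA4, the receptor that delivers ferritin to lysosomes, was at 38.9 FPKM in shControl and 35.8 FPKM in shFKBP9 (log2 ratio -0.12, -0.20 to -0.04). FTL had a log2 ratio of -0.09 (-0.11 to -0.07) and FTH1 one of -0.04 (-0.05 to -0.02). The intervals of the ferritin genes are narrow because 66257 and 61194 fragments lay on FTH1 alone, and they hold no variation between cultures. FTH1 shares 20.7% of its 100-base windows with annotated pseudogenes, which held 602 and 640 fragments, and the sum had the log2 ratio of FTH1, -0.04.

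To place these values, 77 further genes of the same pathways were examined, of which 69 were protein-coding with at least 1 FPKM. Their median log2 ratio was 0.03, and 6 were higher past 0.322 (8.70%, background 5.87%) and 4 lower (5.80%, background 6.94%). The counting interval was above 0 for 20 of them (29.0%, background 19.7%) and below 0 for 15 (21.7%, background 24.0%). Past 2-fold were 2 of the 69 genes, beside a background of 0.213%, from which nothing is read because the list was chosen with these values known. SLC7A11, the cystine transporter, had 103 and 236 fragments, or 0.590 and 1.43 FPKM, and so reached 1 FPKM only in shFKBP9, and CHAC1, which cleaves glutathione, had 77 and 280. SLC3A2, the heavy chain of the transporter, was at 29.2 and 36.3 FPKM (0.32, 0.24 to 0.39), and did not pass the line.

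The 4 other genes past the line were higher by smaller ratios. SOD3, the secreted superoxide dismutase, was at 8.05 FPKM in shControl and 12.6 FPKM in shFKBP9 (log2 ratio 0.65, 0.44 to 0.86). GGT1, which breaks down glutathione outside the cell, was at 2.95 and 4.24 FPKM (0.51, 0.28 to 0.77). PTGS2, a prostaglandin synthase used as a marker of ferroptosis, had 186 and 263 fragments (0.55, 0.30 to 0.86), and SESN2, a sestrin, 510 and 652 (0.43, 0.26 to 0.60).

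The 4 lower genes included a pair with a place in ferroptosis. LPCAT3, which inserts polyunsaturated fatty acids into phospholipids after ACSL4 has activated them, was at 5.04 FPKM in shControl and 3.23 FPKM in shFKBP9, with a log2 ratio of -0.63 (-0.87 to -0.42). It thus differed in the opposite direction to ACSL4. DHODH, a mitochondrial enzyme that limits lipid peroxidation, was at 2.73 and 2.07 FPKM (-0.38, -0.64 to -0.16). The glutathione transferases GSTM2 and GSTA4 were at -0.36 and -0.35.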

How the data were processed

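RNA of each line was made into 1 library with a NEBNext Ultra kit. Per the study's methods and the submitters' processing notes, the authors removed adapter and low-quality reads, aligned the rest to hg38 with HISAT2 2.0.5, counted fragments per gene with featureCounts 1.5.0-p3 and compared libraries with edgeR. The authors deposited FPKM per gene with the gene length and coordinates. The annotation release and strand setting are not given in the sources used here. From these FPKM, fragments were recovered as whole multiples of 1 step per library (100% within 0.01), worth 0.0552 FPKM on a gene of 1 kb in shControl and 0.0582 in shFKBP9.

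Ratios, exact intervals and counts of genes past a log2 ratio of 0.322 or past 2-fold were computed in Python 3.11.15 with numpy 2.4.6, pandas 2.3.3 and scipy 1.17.1, tested on simulated data, over genes that reached 1 FPKM in 1 or both libraries. Alternatives were other values added to FPKM, median ratio and TPM scaling, other minimums, an assumed variation between libraries, and sums with pseudogenes and paralogs. The members and lists were chosen with earlier results of these data known. Named are the members, FKBP9, SLC7A11, CHAC1, markers, copies, and further pathway genes past 0.322 with an interval on 1 side of 0. SLC3A2, PRDX2, PRDX3, PRDX5, GPX1, AGPS, WTAP and RPL18AP3 fall outside this rule and were named after their values were seen. Some genes of the lists are counted but not reported here by name.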

Additional observations from a re-analysis of the deposited data

How the results depend on the processing

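No gene of the 34 passed 2-fold with 1 or 0.01 added to FPKM, with median ratio scaling, on the TPM scale or without a minimum. Past a log2 ratio of 0.322, the 3 lower genes became 1 (TKT) with 1 added to FPKM and 1 with a minimum of 10 FPKM, an alternative added after the data were seen, and 4 on the TPM scale, where PGD passed. The higher genes numbered 2 or 3 in every alternative run. The counts of intervals rest on counting error. With a further coefficient of variation of 10% assumed for each library, 2 genes were above and 1 below no difference, and with 20% assumed, 0 and 0. At 10%, ACSL4 and AKR1C1 cleared no difference only barely. With median ratio scaling the intervals above numbered 8, GPX8 included. The median log2 ratio of the genes ran from -0.06 on the TPM scale to -0.02 with median ratio scaling, and these scalings move all ratios by -0.02 and 0.02. Of 148 recomputed values of single genes, 144 stayed within their counting interval, and the 4 others were FTH1 and FTL under both scalings. Depth limits the statements on SRXN1, OSGIN1, AKR1C2 and ME1. With 1 library per condition, no replicate could be left out, and no paired analysis was possible because each condition has 1 library.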

Other observations

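The order of the levels depends on the gene length, for which the deposited FPKM takes all exons of a gene together. Divided instead by the length of the GENCODE release 44 canonical transcript, MGST1, whose deposited length is 8.04 times that of the transcript, moved from rank 28 to rank 15 of the 38 genes, and its shControl level from 10.2 to 82.2. FTL, FTH1 and AKR1B1 ranked 1, 2 and 3 on both scales. This alternative was added after the data were seen.

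GPX1, the cytosolic glutathione peroxidase left out by its label in the table, had 308 FPKM in shControl and 313 FPKM in shFKBP9, a log2 ratio of 0.03 with an interval of -0.02 to 0.07.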
